A study of Mus musculus with 12 samples.

Results

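The NFAT transcription factors and the phosphatase calcineurin that activates them were described over 12 RNA libraries labelled as mouse CD4 T cells. The genes were chosen by symbol as a pathway and are 8 of the 35907 genes to which the deposited transcripts were assigned. They are the NFAT factors Nfatc1, Nfatc2, Nfatc3 and Nfat5, the calcineurin subunits Ppp3ca, Ppp3cb and Ppp3r1, and the calcineurin regulator Rcan1. Donor genotype was crossed with sampling before transplant (Pre-Tx) or at day 7 after it (Post-Tx), which gave 4 groups of 3 libraries. The genotypes were wild type (WT) and TCF-1 cKO, which the sample labels call TCF-7 cKO, in which a Cre driven by the Cd4 promoter deletes a floxed Tcf7, the gene of the transcription factor TCF-1. Pre-Tx libraries were made from T cells sorted from donor spleens. Post-Tx libraries were made from H2Kb+ donor T cells of the same genotypes, sorted from spleens of lethally irradiated BALB/c hosts that had received CD3 T cells. Labels call all libraries CD4 T cells, while the methods name CD8 T cells for the Post-Tx sort. In each Post-Tx library, however, Cd4 was above the sum of Cd8a and Cd8b1, and in each Pre-Tx library it was below. The labels number the biological replicates without saying which mouse or mice a library holds. The p values therefore measure only the spread between these libraries. The methods give an age range of young adult mice for all experiments.

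Calcium that enters a T cell after receptor engagement binds calmodulin, which activates calcineurin. Calcineurin then removes phosphates from NFATc1, NFATc2 and NFATc3, which move to the nucleus and drive cytokine and activation genes, together with partners such as AP-1. NFAT5 shares the DNA-binding domain but lacks the calcineurin docking region, and is known for the response to high salt. Calcineurin is made of a catalytic A subunit, of which Ppp3ca and Ppp3cb encode the alpha and beta forms, and a calcium-binding B subunit encoded by Ppp3r1. Rcan1 encodes a protein that binds and inhibits calcineurin, and its internal promoter is a known NFAT target, which closes a feedback loop.

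Total estimated counts ran from 17103415 to 49486745 per library. In the Pre-Tx libraries of both genotypes the sum of 10 B cell markers (8385 to 11110.4 normalized CPM, which are counts scaled to library size with TMM factors) was above that of 6 T cell markers (1163 to 2814), and in the Post-Tx libraries it was 41.3 to 77.7 against 3047 to 7132. Cd4 itself stood at 71.2 to 174 normalized CPM before transplant and at 541 to 1333 after it. The sum of the 2 CD8 genes Cd8a and Cd8b1 was 319 to 565 before transplant, above Cd4 in each library. After transplant it was 22.2 to 48.4, below Cd4 in each. Myeloid and erythroid marker sums were also above the T cell sum in each Pre-Tx library, at 2864 to 4546 and 4918 to 28911. After transplant they were 788 to 1434 and 813 to 4820. T cell markers were lower in TCF-1 cKO than in WT at both stages, with 4 of 6 past the test before transplant and 6 of 6 after it. Transcripts of the deleted gene Tcf7 did not separate the genotypes before transplant, with 148 to 193 normalized CPM in TCF-1 cKO and 124 to 207 in WT. After transplant they were 91.6 to 113 in TCF-1 cKO and 155 to 182 in WT, a log2 difference of -0.66 (SE 0.22, adjusted p = 0.0669, edgeR's quasi-likelihood test). The values count whole transcripts, and whether the floxed part was lost was not tested. The genotypes are given as labelled. In such bulk libraries, fewer cells of a type and less RNA per cell cannot be told apart, and this holds for every comparison that follows.

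Nfatc1 had the highest level per transcript length of the 8 genes in every group, in TPM, the unit that divides counts by transcript length and by the library total. Its mean was 44.6 TPM in WT Pre-Tx, 94.9 in TCF-1 cKO Pre-Tx, 118 in WT Post-Tx and 62.3 in TCF-1 cKO Post-Tx (SD 10.3, 27.8, 4.92 and 7.37, n = 3 each). In WT Post-Tx the order below Nfatc1 was Nfatc3 (44.1 TPM), Ppp3r1 (34.8), Nfatc2 (25.3), Ppp3ca (15.3), Ppp3cb (10.8), Rcan1 (9.52) and Nfat5 (3.47). The SDs were 6.74, 8.17, 4.64, 5.34, 5.03, 3.17 and 2.15. Libraries of neighbours in this order overlapped, except between Nfatc1 and Nfatc3, between Nfatc2 and Ppp3ca and between Rcan1 and Nfat5. In WT Pre-Tx, Ppp3r1 (19.5 TPM) and Ppp3ca (17.8) came next to Nfatc1, ahead of Nfatc3 (12.6) and Rcan1 (10.7), with SDs of 9.0, 6.39, 2.34 and 0.373. Nfatc2, Ppp3cb and Nfat5 followed at 5.85, 5.0 and 2.97 TPM, with SDs of 1.88, 1.98 and 1.42. There Nfatc1 stood apart from Ppp3r1, Nfatc3 from Rcan1 and Rcan1 from Nfatc2, and the other neighbours overlapped. In TCF-1 cKO, Ppp3r1 and Nfatc3 held the places below Nfatc1 at 44.0 and 39.5 TPM before transplant and at 42.2 and 43.1 TPM after it, and overlapped at both stages. Ppp3ca followed at 30.6 TPM before transplant, whereas after it Nfatc2 (21.7) and Ppp3ca (19.5) overlapped. The remaining genes were at 3.51 to 11 TPM before and at 8.47 to 11.4 TPM after transplant in TCF-1 cKO.

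The calcineurin-dependent factors NFATc1, NFATc2 and NFATc3 together reached 63.0 TPM in WT Pre-Tx and 187 TPM in WT Post-Tx, with SDs of 11.4 and 10.7. In TCF-1 cKO the sum was 144 TPM before transplant and 127 TPM after it, with SDs of 29.2 and 7.87. Nfatc1 made up 70.4% of this sum in WT Pre-Tx, 65.4% in TCF-1 cKO Pre-Tx, 63.0% in WT Post-Tx and 49.1% in TCF-1 cKO Post-Tx. The share in TCF-1 cKO Post-Tx, 45.2% to 55.4%, did not overlap with the 62.1% to 64.5% of WT Post-Tx. Of the 2 catalytic subunits among the 8 genes, Ppp3ca took 78.2% of the TPM in WT Pre-Tx and 82.2% in TCF-1 cKO Pre-Tx. After transplant it took 58.9% and 67.4%. These shares leave out Ppp3cc, which encodes a further catalytic form. After transplant Ppp3cc averaged 72.0 normalized CPM in WT and 41.5 in TCF-1 cKO, above Ppp3ca at 34.7 and 28.4. Before transplant Ppp3cc was below Ppp3ca, at 32.3 against 48.6 in WT and 63.3 against 85.8 in TCF-1 cKO. Libraries of these 2 genes overlapped in every group.

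**Figure D1:**
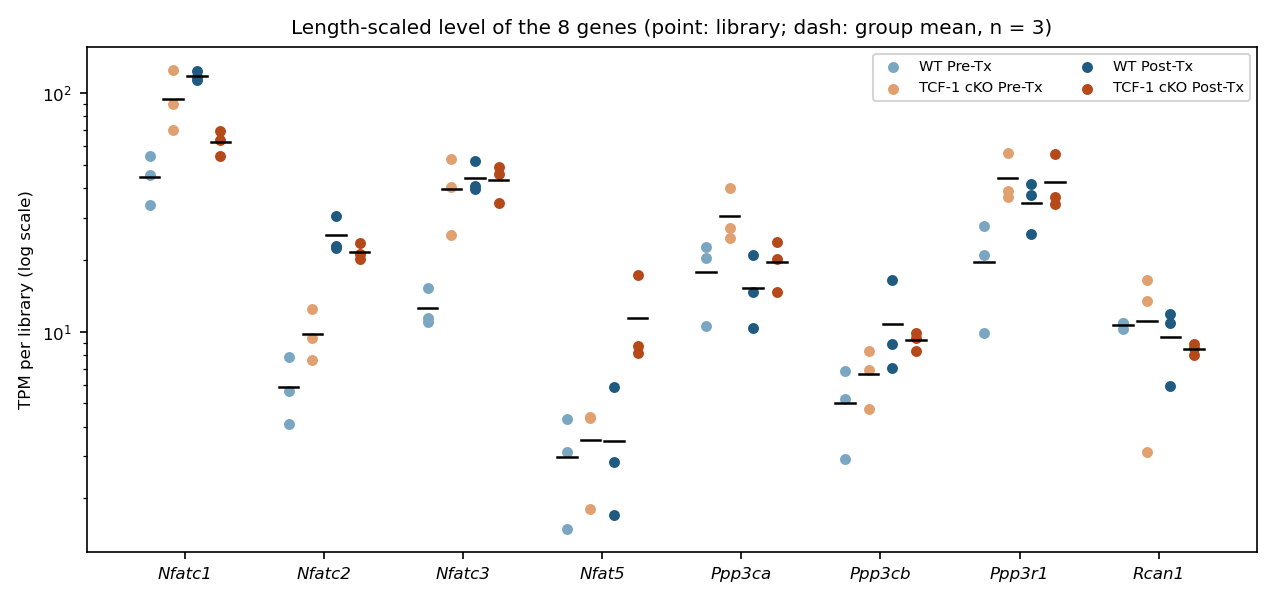
Level of each gene in TPM, a unit scaled for transcript length and library total, on a log axis. Each point is 1 library, colours are the 4 groups and the dash is the mean of 3 libraries. Nfatc1 is the highest gene in each group, with a mean from 44.6 TPM in WT Pre-Tx to 118 TPM in WT Post-Tx.

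The first question was which of these genes differed between genotypes before transplant. Nfatc1, Nfatc3 and Ppp3r1 were higher in TCF-1 cKO, by 1.84, 3.05 and 2.12 times. These 3 of 8 genes passed at an adjusted p under 0.05 with edgeR's quasi-likelihood test, none was lower, and 14.2% of the 17021 genes tested passed in either direction. The median log2 difference of the 8 was 0.64, beside -0.11 over all genes tested. In the same comparison 4 of 6 T cell markers were lower, and 4 of 10 B cell and 2 of 5 natural killer cell markers were higher. The part of such other cells in these differences was not tested. All 8 genes passed the filter on low counts in this and every later comparison.

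The same question was asked at day 7 after transplant. Nfatc1 was lower in TCF-1 cKO, at 0.422 times the WT level, and Nfat5 was higher, by 2.51 times. These were 2 of 8 genes past the same test, beside 6.65% of 19287 genes in either direction. Nfatc2 and Nfatc3 stood at 0.635 and 0.689 times the WT level without passing it. The median log2 difference of the 8 genes was -0.46, beside 0.09 over all genes tested. All 6 T cell markers were lower there, with a median of -0.92, and 5 of 6 erythroid markers were higher, and their part was not tested.

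Whether the genotype difference itself changed between the stages was tested as an interaction over all 12 libraries, and it did for 3 of 8 genes, Nfatc1, Nfatc3 and Ppp3r1. Each was lower in TCF-1 cKO relative to WT after transplant than before it. Of 21434 genes, 28.6% passed that test in either direction. Within WT, transplant went with a rise of Nfatc1, Nfatc2 and Nfatc3, 3 of 8 genes, beside 22% of genes in either direction. Within TCF-1 cKO it went with a fall of Nfatc1 and Ppp3ca, 2 of 8 genes, beside 26.7%. These 5 comparisons use the same 4 groups of libraries and are therefore not independent of each other. Pre-Tx and Post-Tx libraries differ in day, host and sorted cells at once, which cannot be told apart.

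**Figure D2:**
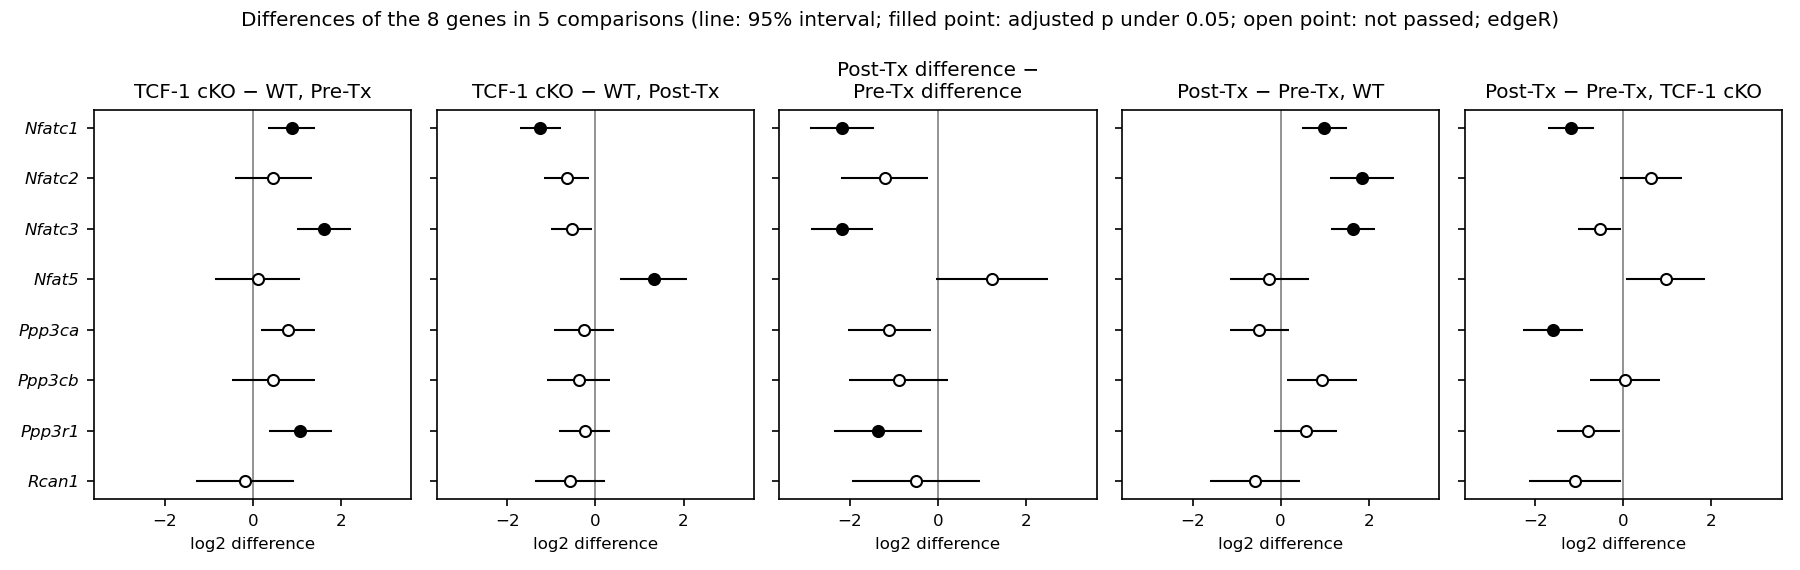
Log2 difference of each gene in 5 comparisons, with the 95% interval of edgeR's quasi-likelihood fit as a line. Filled points passed at an adjusted p under 0.05. Nfatc1 lies above 0 before transplant (0.88) and below 0 after it (-1.25), and the third panel gives the change between these values (-2.17).

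Nfatc1, which lies on chromosome 18 of GRCm38 from 80606205 to 80713071 on the minus strand, encodes the NFAT factor that is induced by its own family on T cell activation. Its normalized CPM were 326, 609.8 and 481 for TCF-1 cKO Pre-Tx against 244, 304 and 201 for WT Pre-Tx. All 3 TCF-1 cKO libraries were above all 3 WT libraries. The log2 difference was 0.88 (SE 0.25, adjusted p = 0.0379, edgeR). It no longer passed without replicate 2 or 3 of TCF-1 cKO or replicate 1 or 3 of WT, with values of 0.67 to 1.11 when any 1 library was left out, and it was 0.53 with upper-quartile scaling (adjusted p = 0.143).

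After transplant Nfatc1 was at 247, 173 and 204 normalized CPM in TCF-1 cKO and at 496, 462 and 529.7 in WT. The groups did not overlap, and the highest TCF-1 cKO library was far below the lowest WT library. The log2 difference was -1.25 (SE 0.23, adjusted p = 0.0154, edgeR), and it lost the call only without replicate 2 of TCF-1 cKO (-1.12, adjusted p = 0.121). Within WT the gene rose with transplant by a log2 of 0.99 (SE 0.24, adjusted p = 0.00755), and within TCF-1 cKO it fell by 1.18 on the log2 scale (SE 0.24, adjusted p = 0.00247). The genotype difference thus moved by -2.17 between the stages (SE 0.35, adjusted p = 0.00179), and passed in each of 20 alternative settings. The mean of TCF-1 cKO before transplant, 472 ± 142 normalized CPM (SD, n = 3), lay within the spread of WT after it, 496 ± 34.0. Its libraries ran more widely, from 326 to 609.8.

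Nearly all Nfatc1 counts were assigned to protein-coding transcripts, and they divide over short transcripts that end early, Nfatc1-201 and Nfatc1-206, and longer ones. The short transcripts took 54.3% to 66.1% of the Nfatc1 counts in the 6 Pre-Tx libraries and 68.6% to 80.001% in the 6 Post-Tx libraries. The 2 stages did not overlap, and the group means were 56.6% and 61.0% in WT and TCF-1 cKO before transplant and 71.2% and 76.0% after it. The 2 short transcripts did not move alike. Nfatc1-206, which starts upstream, went with transplant from 39.5% to 47.5% in WT and from 54.3% to 38.7% in TCF-1 cKO. Nfatc1-201, which starts downstream, went from 17.1% to 23.7% in WT and from 6.73% to 37.3% in TCF-1 cKO. Only this last change was without overlap of the libraries. These splits were looked for after the transcript values had been seen and were given no test.

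Nfatc2 lies on chromosome 2 from 168476410 to 168601657 on the minus strand and encodes the NFAT factor that resting T cells already hold. It stood at 22.5, 36.0 and 59.7 normalized CPM in WT Pre-Tx and at 168, 115 and 141 in WT Post-Tx. Every Post-Tx library of WT was above every Pre-Tx one, and the rise was 1.85 on the log2 scale (SE 0.34, adjusted p = 0.000884, edgeR). In TCF-1 cKO it was 37.3, 75.0 and 61.2 before transplant and 108, 73.4 and 88.1 after it. These stages overlapped, and the log2 difference of 0.63 (95% interval -0.07 to 1.33) did not pass (adjusted p = 0.153).

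Between genotypes, Nfatc2 overlapped before transplant, at a log2 difference of 0.47 (95% interval -0.41 to 1.35, adjusted p = 0.431). After transplant all 3 TCF-1 cKO libraries were below all 3 WT libraries, yet the difference of -0.65 (95% interval -1.17 to -0.14) did not pass over all genes (adjusted p = 0.0888). The interaction value was -1.21 (SE 0.47, adjusted p = 0.0601), and it passed when replicate 1 of TCF-1 cKO Pre-Tx (-1.48), replicate 3 of WT Pre-Tx (-1.86) or replicate 2 of WT Post-Tx (-1.36) was left out.

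Nfatc3, on chromosome 8 from 106058840 to 106130537 on the plus strand, encodes the NFAT factor that is also prominent in thymocytes. Its normalized CPM were 245, 209 and 141 for TCF-1 cKO Pre-Tx against 56.0, 76.4 and 59.0 for WT Pre-Tx. The lowest TCF-1 cKO library was well above the highest WT library, and the log2 difference of 1.61 was the largest among the 8 genes in that comparison (SE 0.28, adjusted p = 0.00989, edgeR). Leaving out any 1 library gave 1.43 to 1.89, and without replicate 1 of WT the adjusted p was 0.0695.

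After transplant Nfatc3 was at 128, 127 and 153 normalized CPM in TCF-1 cKO and at 185, 199 and 212 in WT. Here TCF-1 cKO was the lower group with no overlap, but the log2 difference of -0.54 (95% interval -0.996 to -0.08) did not pass (adjusted p = 0.108). Within WT it rose by 1.64 (SE 0.24, adjusted p = 9.69e-05), the smallest adjusted p of the 8 genes in any of the 5 comparisons. Within TCF-1 cKO the change of -0.54 did not pass (adjusted p = 0.0887). The interaction was -2.18 (SE 0.33, adjusted p = 0.00168), and it passed in each of 20 alternative settings.

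In TPM, which has no TMM scaling, Nfatc3 was 43.1 in TCF-1 cKO Post-Tx and 44.1 in WT Post-Tx. Before transplant the TPM values were apart, at 39.5 and 12.6.

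**Figure D3:**
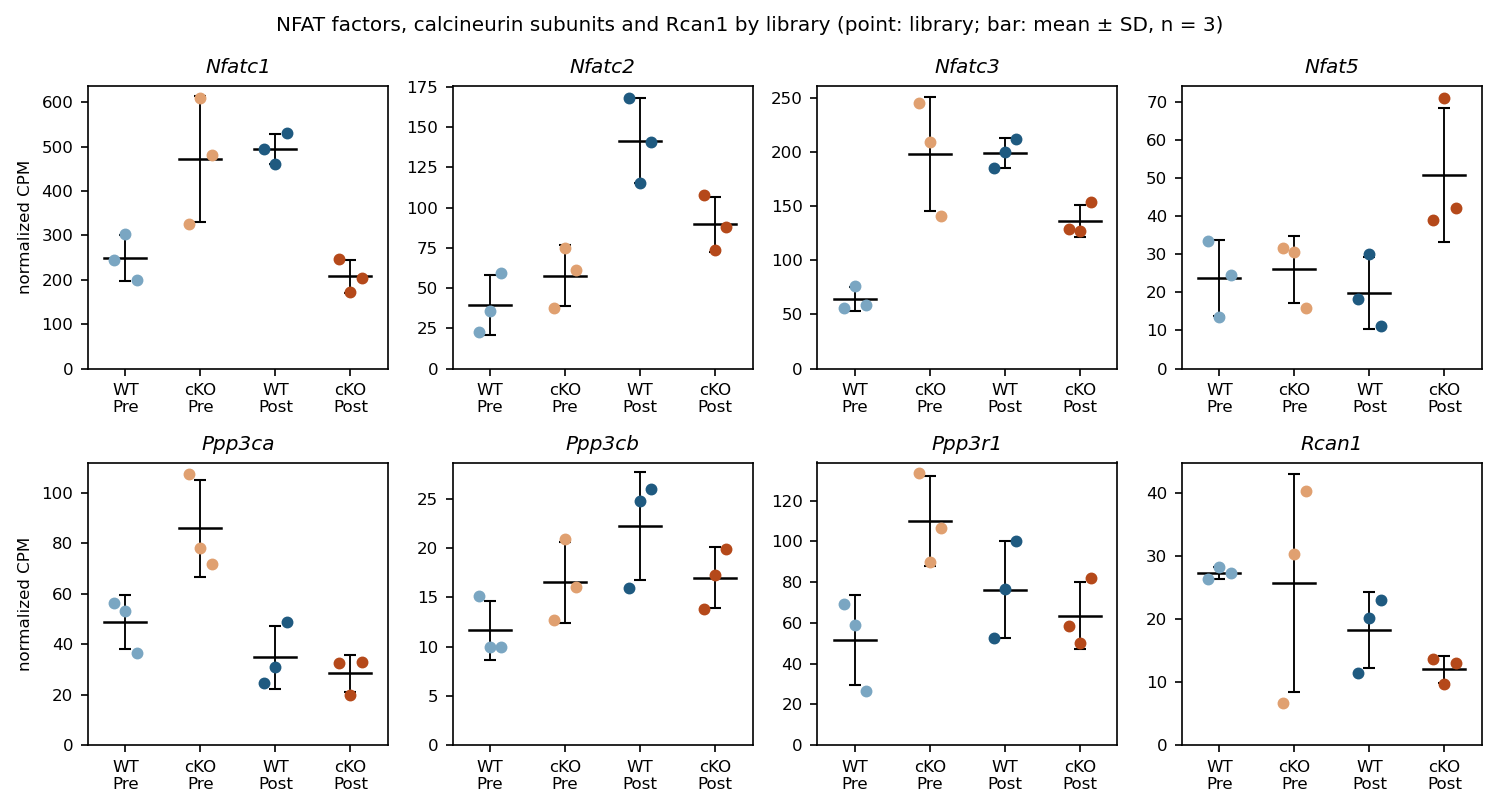
Normalized CPM (counts scaled to library size with TMM factors) of each gene, with 1 point per library and the mean ± SD of 3 libraries in black. WT and TCF-1 cKO are shown before (Pre) and after (Post) transplant. For Nfatc1 and Nfatc3, TCF-1 cKO lies above WT before transplant (472 against 249.5 and 198 against 63.8) and below it after transplant (208 against 496 and 136 against 199).

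Nfat5, on chromosome 8 from 107293470 to 107379517 on the plus strand, encodes the tonicity-responsive factor that does not depend on calcineurin. Its normalized CPM were 39.1, 71.0 and 42.1 for TCF-1 cKO Post-Tx against 18.2, 30.0 and 11.3 for WT Post-Tx. The TCF-1 cKO libraries were all above the WT libraries, and the log2 difference was 1.33 (SE 0.36, adjusted p = 0.0408, edgeR). The call was lost without replicate 2 (1.03) or 3 (1.40) of TCF-1 cKO and without replicate 1 (1.24) or 3 (0.96) of WT.

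Before transplant Nfat5 was at 31.7, 30.5 and 15.8 in TCF-1 cKO and at 33.3, 13.5 and 24.4 in WT. These groups overlapped, with a log2 difference of 0.11 (95% interval -0.86 to 1.08, adjusted p = 0.879). Transplant went with -0.26 in WT (adjusted p = 0.67) and 0.96 in TCF-1 cKO (95% interval 0.06 to 1.86, adjusted p = 0.0959). The interaction of 1.23 (95% interval -0.04 to 2.49) did not pass either (adjusted p = 0.126).

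Most Nfat5 counts went to a retained-intron transcript, Nfat5-212, which holds unspliced sequence and codes for no full protein. It took 69.9% of the counts in TCF-1 cKO Post-Tx, 59.0% in WT Post-Tx, and, before transplant, 52.7% in TCF-1 cKO and 55.2% in WT. Retained-intron transcripts of the gene summed to 28.1, 56.6 and 24.7 normalized CPM for TCF-1 cKO Post-Tx against 9.92, 21.1 and 5.86 in WT Post-Tx. The protein-coding transcripts gave 11, 14.4 and 17.4 against 7.75, 8.90 and 5.31. When protein-coding transcripts alone were counted for every gene, the log2 difference of Nfat5 after transplant was 1.25 and did not pass (adjusted p = 0.137, edgeR).

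The sum of 1407 olfactory receptor genes, which T cells are not known to use and which serve here as a measure of background, differed between the same groups. It was 3762 to 9186 normalized CPM for TCF-1 cKO Post-Tx against 1246 to 2851 in WT Post-Tx, and its highest TCF-1 cKO library was replicate 2, as for Nfat5. Before transplant the order was the opposite, with 1038 to 1687 in TCF-1 cKO and 2912 to 7339 in WT. The part of this background in the Nfat5 values, and in those of the other genes, was not tested.

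**Figure D4:**
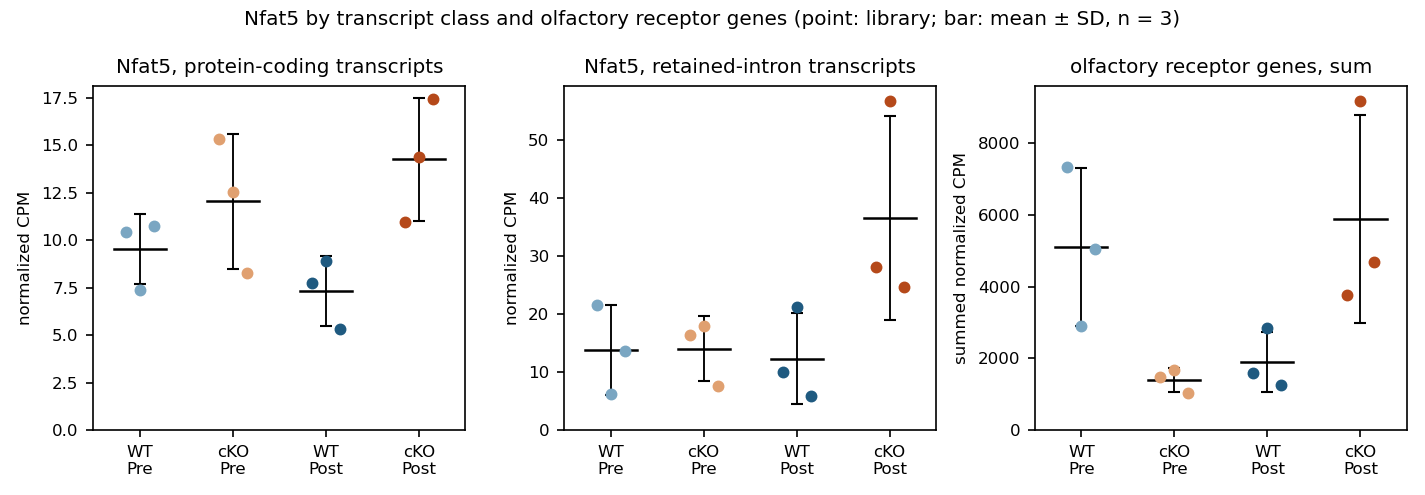
Normalized CPM of the protein-coding and the retained-intron transcripts of Nfat5 and the summed normalized CPM of olfactory receptor genes, with 1 point per library and the mean ± SD of 3 libraries in black. In TCF-1 cKO Post-Tx, replicate 2 is the highest library for retained-intron Nfat5 (56.6) and for the olfactory receptor sum (9186).

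Ppp3ca, on chromosome 3 from 136670124 to 136937727 on the plus strand, encodes the alpha form of the catalytic subunit. Its normalized CPM were 108, 78.0 and 71.8 for TCF-1 cKO Pre-Tx against 32.4, 19.8 and 33.0 for TCF-1 cKO Post-Tx. The stages were far apart, and the gene fell by 1.60 on the log2 scale with transplant in TCF-1 cKO (SE 0.32, adjusted p = 0.00212, edgeR). In WT it was 56.4, 53.1 and 36.4 before and 24.4, 31.1 and 48.6 after transplant, which overlap, and the log2 difference of -0.49 (95% interval -1.15 to 0.18) did not pass (adjusted p = 0.273). The difference between these changes, -1.11, missed the threshold as well (95% interval -2.05 to -0.17, adjusted p = 0.0693), so that the fall in TCF-1 cKO is not shown to differ from the value in WT.

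Between genotypes, all 3 TCF-1 cKO libraries were above all 3 WT libraries for Ppp3ca before transplant. The log2 difference of 0.80 (SE 0.28) had an adjusted p of 0.0728 with edgeR. After transplant the genotypes overlapped, at -0.26 (95% interval -0.93 to 0.41, adjusted p = 0.57).

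Ppp3cb, on chromosome 14 from 20499364 to 20546573 on the minus strand, encodes the beta form, the catalytic subunit with a known need in T cells. Its mean level in TPM was below that of Ppp3ca in every group. In replicate 2 of WT Post-Tx alone it was above, at 16.5 against 14.6 TPM. It stood at 12.7, 20.9 and 16.0 normalized CPM for TCF-1 cKO Pre-Tx against 15.1, 9.96 and 9.92 in WT Pre-Tx. After transplant it was 13.8, 17.3 and 19.9 in TCF-1 cKO and 15.9, 24.8 and 26.0 in WT. The genotypes overlapped at both stages, and none of the 5 comparisons passed. In WT the stages did not overlap, and the log2 difference of 0.93 (95% interval 0.13 to 1.73, adjusted p = 0.0867, edgeR) passed once replicate 1 of WT Pre-Tx, its highest library, was left out (1.35, adjusted p = 0.0462).

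Ppp3r1, on chromosome 11 from 17159263 to 17200375 on the plus strand, encodes the calcium-binding B subunit that the catalytic subunits need. Its normalized CPM were 133, 89.8 and 106 for TCF-1 cKO Pre-Tx against 69.2, 58.7 and 26.7 for WT Pre-Tx. TCF-1 cKO was the higher group without overlap, and the log2 difference was 1.08 (SE 0.32, adjusted p = 0.0458, edgeR). That value is close to the threshold, and without any 1 of the 6 libraries the call was lost, at 0.74 to 1.32. With upper-quartile scaling it was 0.72 (adjusted p = 0.122). After transplant Ppp3r1 was 58.4, 50.04 and 81.9 in TCF-1 cKO and 52.5, 76.4 and 99.9 in WT, which overlap, at -0.24 (95% interval -0.82 to 0.33, adjusted p = 0.534).

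The interaction of Ppp3r1 was -1.36 (SE 0.48, adjusted p = 0.0421, edgeR). It was lost when 1 of 6 libraries was left out, replicates 1 and 3 of TCF-1 cKO Pre-Tx, 1 and 2 of TCF-1 cKO Post-Tx, and 2 and 3 of WT Post-Tx, and it ran from -1.66 to -1.14 over the 12 libraries. It passed in 9 of 20 alternative settings in all, and with upper-quartile scaling it was -0.70 (adjusted p = 0.221). Neither stage comparison passed, with 0.57 in WT (adjusted p = 0.233) and -0.79 in TCF-1 cKO (adjusted p = 0.0848).

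Rcan1, on chromosome 16 from 92391953 to 92470867 on the minus strand, passed in none of the 5 comparisons. Its normalized CPM were 6.60, 30.3 and 40.3 for TCF-1 cKO Pre-Tx against 26.4, 28.3 and 27.4 for WT Pre-Tx. The first of these libraries was low, and the others lay above WT, so that the groups overlapped (log2 difference -0.17, 95% interval -1.28 to 0.95, adjusted p = 0.837, edgeR). After transplant it was at 13.6, 9.62 and 13.0 in TCF-1 cKO and at 11.4, 20.2 and 23.0 in WT, which also overlap (-0.57, 95% interval -1.37 to 0.23, adjusted p = 0.289). Within TCF-1 cKO the log2 difference with transplant was -1.09 (adjusted p = 0.0999), and without replicate 1 of TCF-1 cKO Pre-Tx it was -1.56 and passed (adjusted p = 0.0117). In WT it was -0.59 (95% interval -1.61 to 0.44, adjusted p = 0.389).

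Rcan1 has a distal start, used by Rcan1-202 and Rcan1-206, and an internal start, used by Rcan1-201 and Rcan1-207. The internal one is the promoter known to answer to NFAT. Both are printed because they give the sequence context of that feedback. The letters are the 250 bases before each RefSeq start on GRCm38.p6, minus strand, read 5′ to 3′, at chr16:92466170-92466419 for the distal and chr16:92400079-92400328 for the internal start, and capitals mark GGAAA, the core of the NFAT motif, or its reverse complement TTTCC.
Rcan1 distal: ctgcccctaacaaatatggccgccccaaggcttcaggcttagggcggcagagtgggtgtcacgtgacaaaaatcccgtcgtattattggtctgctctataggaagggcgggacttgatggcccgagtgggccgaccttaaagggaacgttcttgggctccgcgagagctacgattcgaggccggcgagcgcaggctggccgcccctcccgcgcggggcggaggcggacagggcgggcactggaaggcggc
Rcan1 internal: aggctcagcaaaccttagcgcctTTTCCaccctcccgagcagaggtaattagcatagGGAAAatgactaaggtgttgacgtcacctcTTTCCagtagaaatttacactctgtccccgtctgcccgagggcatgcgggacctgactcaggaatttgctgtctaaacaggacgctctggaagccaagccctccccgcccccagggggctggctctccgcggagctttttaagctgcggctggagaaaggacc
The internal window holds 3 matches and the distal window holds 0. Among 32851 mouse promoter windows of the same length, 55.6% hold at least 1 match and 6.39% hold 3 or more, so that a match is a description of the letters and not of a bound site.

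The internal start took 60.3%, 48.4% and 42.6% of the Rcan1 counts in TCF-1 cKO Post-Tx and 0%, 38.8% and 37.2% in WT Post-Tx. Before transplant it took 0%, 0% and 18.7% in TCF-1 cKO and 18.4%, 0% and 29.2% in WT. In TCF-1 cKO the stages did not overlap, while in WT they did. The distal start, the main one of the gene, averaged 54.7% over the 6 Post-Tx libraries (SD 22.6) and 76.6% over the 6 Pre-Tx libraries (SD 22.7). The difference of -21.9 percentage points did not pass an exact two-sided permutation test (p = 0.13, adjusted p = 0.633 over 7 genes, smallest p the design allows 0.00216). These shares are kallisto's estimates from few counts. Where the internal start was used, it had as few as 133 counts per library in TCF-1 cKO Post-Tx and 79.3 in WT Pre-Tx. Replicate 1 of TCF-1 cKO Pre-Tx, a library at 0%, had 126 Rcan1 counts in all.

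**Figure D5:**
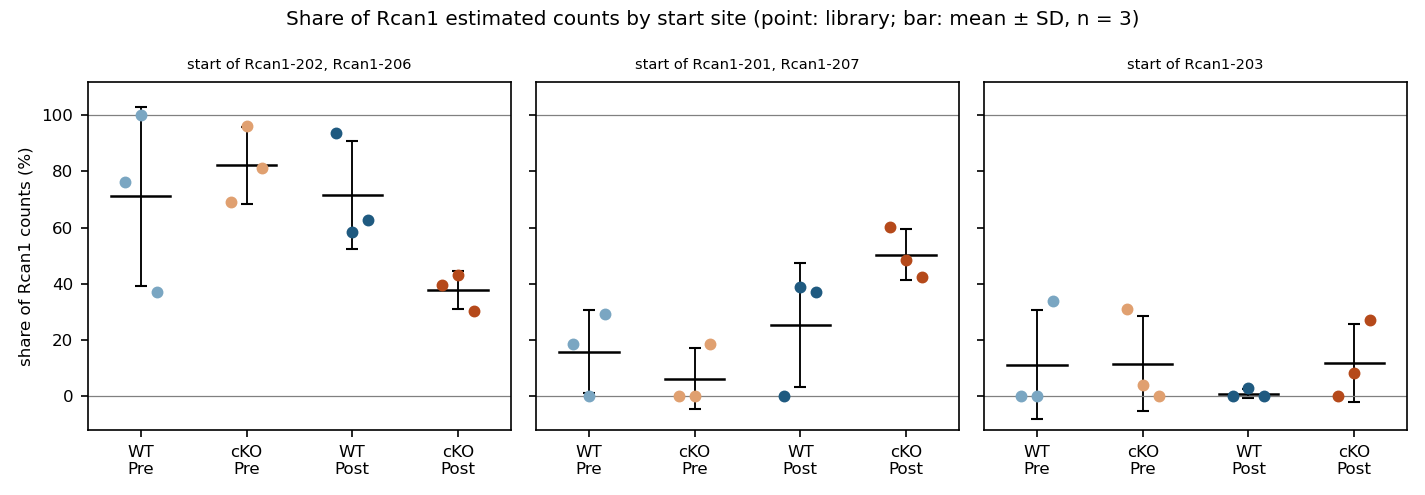
Share of Rcan1 estimated counts, in percent, from the distal start (Rcan1-202 and Rcan1-206), the internal start (Rcan1-201 and Rcan1-207) and a further start (Rcan1-203), with 1 point per library and the mean ± SD of 3 libraries in black. The internal start is at 42.6% to 60.3% in TCF-1 cKO Post-Tx and at 0% to 29.2% in the Pre-Tx libraries of both genotypes.

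Tests covered the 7 genes with enough counts and more than 1 start with a mean share of at least 10% at either stage. Ppp3r1 was left out, as its second start took at most 8.12% by group mean. Of the 7, 0 passed the exact permutation test at an adjusted p under 0.05, and 0 had an unadjusted p under 0.05, with 0.13 of Rcan1 the smallest. The main start of Nfatc1 took 52.6% of its counts after and 57.9% before transplant, and that of Nfatc3 73.0% and 71.6%. For Nfatc1 these means pool opposite moves of the genotypes. In TCF-1 cKO its share fell with transplant from 66.6% (58.7% to 72.1%) to 48.2% (42.3% to 58.3%). In WT it rose from 49.2% (44.5% to 55.5%) to 57.0% (52.8% to 60.2%). The genotypes were not tested apart.

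Nfatc3 is shown as well, because it had the largest log2 difference between genotypes before transplant among the chosen genes. TCF-1 is a DNA-binding factor whose motif has the core CTTTGA, and this core was searched for too. Whether TCF-1 binds at Nfatc3 or has a part in that difference was not tested. The window is the 250 bases before the upstream RefSeq start of Nfatc3 on GRCm38.p6, plus strand, at chr8:106058568-106058817, with GGAAA or TTTCC in capitals. This start took 17.2% to 24.9% of the Nfatc3 counts by group mean, and the downstream start took 67.6% to 78.4%.
Nfatc3 upstream: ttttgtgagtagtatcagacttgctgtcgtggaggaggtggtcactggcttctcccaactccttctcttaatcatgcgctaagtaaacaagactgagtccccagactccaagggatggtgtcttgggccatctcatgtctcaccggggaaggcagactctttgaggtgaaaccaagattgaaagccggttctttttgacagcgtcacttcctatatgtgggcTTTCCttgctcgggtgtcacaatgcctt
It holds 1 match to CTTTGA or its reverse complement TCAAAG, left in lower case, as 13.8% of all promoter windows do. In 9 windows of 6 of the genes, this was the only one with that match, and the window of the downstream Nfatc3 start held 0. Nfatc1 and Ppp3ca had no window and were not searched. For GGAAA, the windows of Nfatc2 held 3 and 1 matches, that of Ppp3cb 3, that of Nfat5 2, those of Nfatc3 1 and 0, and that of Ppp3r1 0.

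Upstream of calcineurin, 12 genes of calcium entry and calmodulin were described. Before transplant, 3 of 12 were higher in TCF-1 cKO and none lower, beside 14.2% of all genes in either direction. Among them were Calm2, which encodes calmodulin (log2 difference 0.84, adjusted p = 0.0457, edgeR), and Itpr2, which encodes a calcium release channel (1.00, adjusted p = 0.0235). After transplant 3 of 12 were lower and none higher, beside 6.65% of all genes. They were the release channel gene Itpr3 (-1.53, adjusted p = 0.0175), the phospholipase gene Plcg1 (-0.86, adjusted p = 0.0391) and the calcium entry channel gene Orai2 (-0.82, adjusted p = 0.0463). The list median was 0.29 before and -0.60 after transplant, beside -0.11 and 0.09 over all genes. The interaction passed for 4 of 12, all lower, which is near the 28.6% of all genes, among them Itpr3 (-2.12), Itpr2 (-1.59) and Calm2 (-1.39).

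With transplant, 5 of the 12 calcium genes rose and 2 fell in WT, beside 22% of all genes, with Calm3 (1.08) and Calm2 (0.91) among the rises, while Orai3 (-1.41) and Itpr3 (-0.95) fell. In TCF-1 cKO, Calm3 (0.83) and Plcg1 (1.21) rose and Itpr3 (-3.07), Orai3 (-1.62), Orai2 (-1.32) and Itpr2 (-1.13) fell, beside 26.7% of all genes, with Itpr3 from 154 ± 15.2 to 18.4 ± 2.10 normalized CPM (SD, n = 3 each). B cell markers fell with transplant in both genotypes (10 of 10 in each), and their part in these values was not tested.

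Of 11 genes of NFAT kinases and nuclear transport, 3 were higher in TCF-1 cKO before transplant and none lower, beside 14.2% of all genes in either direction. They were Xpo1, the export receptor that takes NFAT out of the nucleus (1.53, adjusted p = 0.0152), Csnk1a1, a casein kinase that phosphorylates NFAT (1.22, adjusted p = 0.0339), and Kpnb1, an import receptor (1.23, adjusted p = 0.0352, edgeR). After transplant 0 of 11 passed. The same 3 genes rose with transplant in WT, by 1.41, 1.36 and 1.94, and the scaffold gene Homer3 fell (-2.46), so that 3 rose and 1 fell in WT, beside 22% of all genes. In TCF-1 cKO 0 of 11 passed, beside 26.7%. The interaction passed for 5 of 11, beside 28.6%. It was lower for the 3 genes higher before transplant (-1.61, -1.79 and -1.62) and for the kinase gene Dyrk1a (-1.63). It was higher for Homer2, another scaffold gene (3.15), which had at most 12.4 normalized CPM in any library. By group mean, Homer2 was lowest in TCF-1 cKO Pre-Tx (1.64), then WT Post-Tx (2.24), WT Pre-Tx (5.10) and TCF-1 cKO Post-Tx (6.37). The olfactory receptor sum had the same order, and its part was not tested.

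Of the 9 other subunits, family members, inhibitors and anchors, 8 were tested between genotypes. None passed before transplant, and after it Fkbp1a, which encodes the binding protein of the calcineurin inhibitor tacrolimus, was lower in TCF-1 cKO (-0.81, adjusted p = 0.041, edgeR). Ppp3cc, the gamma form of the catalytic subunit, rose with transplant in WT (1.16, adjusted p = 0.0249) and had a lower genotype difference after transplant than before it (-1.76, adjusted p = 0.0168). Fkbp1a also rose with transplant in WT (1.35), and in TCF-1 cKO Fkbp1a (0.76), Nfatc4 (2.16) and Rcan2 (2.05) rose and Cabin1 (-0.63) fell. Rcan2 and Nfatc4 had higher genotype differences after transplant (3.54 and 3.04), at group means of at most 6.59 normalized CPM. Their order over the 4 groups, lowest for TCF-1 cKO Pre-Tx and next for WT Post-Tx, was also that of the olfactory receptor sum.

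Downstream, 20 NFAT target genes of T cells were described. With transplant 14 rose in WT and 13 in TCF-1 cKO, 0 fell in WT, and Irf4 (-2.50) and Egr3 (-1.85) fell in TCF-1 cKO, beside 22% and 26.7% of all genes in either direction. Pdcd1, which encodes the receptor PD-1, went from 25.2 ± 1.87 to 719 ± 141 normalized CPM in WT and from 17.4 ± 4.91 to 269 ± 11.7 in TCF-1 cKO (SD, n = 3 each). Ifng, the interferon gamma gene, went from 0.616 ± 0.482 to 84.2 ± 13.9 in WT and from 0.939 ± 0.716 to 125 ± 33.0 in TCF-1 cKO. T cell markers rose with transplant as well, 6 of 6 in both genotypes.

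Between genotypes, 2 of 13 target genes tested were higher in TCF-1 cKO before transplant, near the 14.2% of all genes, the transcription factor gene Irf4 (1.52, adjusted p = 0.0126) and Fasl, the death ligand gene (1.73, adjusted p = 0.0464, edgeR). After transplant 4 of 20 were lower and none higher, beside 6.65%, Pdcd1 (-1.42, adjusted p = 0.00884), the inhibitory receptor gene Ctla4 (-1.24, adjusted p = 0.0209) and the transcription factor genes Tox (-1.19, adjusted p = 0.0209) and Egr2 (-1.40, adjusted p = 0.0328, edgeR). The list median after transplant was -0.52, and that of 6 T cell markers was -0.92, all 6 of which were lower. Ifng itself was at 0.58 (adjusted p = 0.123). The interaction passed for 5 of 20, beside 28.6%, and was lower for Irf4 (-2.49), Fasl (-2.37) and Egr3 (-2.53) and higher for Il4 and Il5, which were at or under 1.41 normalized CPM in every Pre-Tx library.

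None of the 6 tonicity targets of NFAT5 passed the test between genotypes at either stage. After transplant, where Nfat5 was called higher, their log2 differences had a median of 0.16, beside 0.09 over all genes. Hspa4l, a chaperone gene, rose with transplant in WT (1.46, adjusted p = 0.012), and Slc6a6, the taurine transporter gene, fell in TCF-1 cKO (-0.63, adjusted p = 0.0483, edgeR).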

How the data were processed

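RNA sequencing of 12 libraries was analysed, 3 for each combination of genotype and stage, grouped by the sample labels. The authors pseudoaligned reads with kallisto (version 0.46.2 in the submitters' processing notes, which also name mm9) and deposited estimated counts, effective lengths and TPM for 117497 transcripts per library. Which transcript set they used was not given in these sources. The deposited transcripts were matched by identifier to GENCODE M21 (GRCm38), 116428 of them, and 1069 unmatched ones (0.282% to 0.386% of counts) were left out. Estimated counts were summed per gene and rounded to whole numbers. No column of other samples was present.

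Differences were tested with edgeR 4.0.16 (R 4.3.3; TMM scaling, filterByExpr, quasi-likelihood test) and Benjamini-Hochberg adjustment over all genes tested, at 0.05. Genotypes were compared within each stage on 6 libraries, and stages and the interaction on all 12. Normalized CPM are counts scaled to library size with TMM factors, and likeness between genes was taken on their log2 values (prior count 2). Alternatives used limma 3.58.1 and DESeq2 1.42.0. The procedure was tested on simulated data. Start-site shares were compared with exact permutation tests (scipy 1.17.1) in genes with a mean of at least 100 counts. More than 1 start with a mean share of at least 10% before or after transplant was also required. Figures were drawn with matplotlib 3.10.9.

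Libraries held 17103415 to 49486745 estimated counts. Replicate numbers were not used as pairs. The genes and lists were chosen with earlier results of these data known. The genes named were all 8 genes, up to 3 genes per list, direction and comparison with the smallest adjusted p, all members of a count of 5 or fewer, and for each of the 8 the 2 genes with the most similar pattern. A gene that is counted in a list but not named is not reported here. Promoter sequences are from RefSeq on GRCm38.p6.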

Additional observations from a re-analysis of the deposited data

Results flagged for a closer look

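The genotype difference was not the same before and after transplant for 3 of the 8 genes, by the test of the interaction itself (edgeR), which passed in 20 of 20 alternative settings for Nfatc1 and Nfatc3 but in 9 of 20 for Ppp3r1. The difference between TCF-1 cKO and WT moved by -2.17 for Nfatc1, by -2.18 for Nfatc3 and by -1.36 for Ppp3r1 on the log2 scale. For Nfatc1 it went from 0.88 to -1.25, for Nfatc3 from 1.61 to -0.54 and for Ppp3r1 from 1.08 to -0.24. All 3 genes had higher means in TCF-1 cKO Pre-Tx and WT Post-Tx than in WT Pre-Tx and TCF-1 cKO Post-Tx. The olfactory receptor sum was lower in the former groups, and its part was not tested.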

How the results depend on the processing

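The rises of Nfatc1, Nfatc2 and Nfatc3 with transplant in WT and the falls of Nfatc1 and Ppp3ca in TCF-1 cKO passed in 15 of 15 alternatives each, and the interactions of Nfatc1 and Nfatc3 in 20 of 20, while that of Ppp3r1 passed in 9 of 20 (-1.66 to -0.70). Before transplant Nfatc3 passed in 14 of 15, Nfatc1 in 8 and Ppp3r1 in 4. After it Nfatc1 passed in 14 of 15 and Nfat5 in 7. The causes of the changes below were not tested. Of 8 genes, 3 were called between genotypes before transplant, and 1 with upper-quartile scaling, voom and limma on TPM, or protein-coding transcripts only (an alternative chosen after seeing the data), and 0 to 2 without 1 library (0 without replicate 1 of WT). After transplant 2 were called, and 1 with voom on TPM, length-scaled TPM, all 12 libraries in 1 model or protein-coding transcripts, 4 with a replicate block, and 0 to 2 without 1 library (0 without replicate 2 of TCF-1 cKO). The block adds Nfatc2 (-0.66, adjusted p = 0.0312) and Nfatc3 (-0.55, adjusted p = 0.0477, edgeR). Labels give the replicates no shared source, and residuals of same-numbered libraries correlated at -0.272 to 0.248, over 0.1 in 2 of 18 pairs, numbers 2 and 3 of this comparison. In TCF-1 cKO 2 changed with transplant, and 4 with upper-quartile scaling, no filter or DESeq2, and 2 to 3 without 1 library. The interaction called 3, and 5 with median-of-ratios scaling, no filter or DESeq2, and 2 to 4 without 1 library. In WT it was 3 to 4 without 1 library, and start-site tests called 0 throughout.

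Signs turned only for uncalled values. Nfat5 before transplant was -0.29 with upper-quartile scaling and -0.068 with voom, Ppp3ca after transplant 0.011 and 0.14, and Ppp3r1 after transplant 0.029 and 0.044. Nfat5 in WT was 0.046 with length-scaled TPM. Ppp3cb in TCF-1 cKO was -0.051 with median-of-ratios scaling and with DESeq2, -0.085 with no filter, -0.081 with voom, and -0.010 on 6 libraries. The interaction of Rcan1 was 0.17 with upper-quartile scaling. Without 1 library, Nfat5 before transplant ran from -0.18 to 0.45, Rcan1 before transplant from -0.52 to 0.32, Nfat5 in WT from -0.68 to 0.27 and Ppp3cb in TCF-1 cKO from -0.13 to 0.23, and the main start share of Nfatc2 from -4.28 to 8.23 and of Nfatc3 from -0.91 to 5.17 percentage points.

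Over all genes, 2413 differed between genotypes before transplant, 4066 with DESeq2, 1560 with voom, 3665 with all 12 libraries and 1331 with protein-coding transcripts. After transplant 1283 differed, 3785 with DESeq2, 2205 with no filter, 798 with upper-quartile scaling, 401 with voom, 755 with length-scaled TPM, 3257 with the replicate block, 137 with all 12 libraries and 149 with protein-coding transcripts, which also gave 3771 in place of 5713 in TCF-1 cKO and 3504 in place of 6134 for the interaction. Without 1 library, the counts ran from 14 (without replicate 1 of WT) to 2611 before and from 6 (without replicate 2 of TCF-1 cKO) to 3209 after transplant, and moved by over 1.5 times except without replicate 2 of WT before and replicate 1 of TCF-1 cKO after it. In WT 4705 became 2761 (11.9%) without Post-Tx replicate 3 of WT. In TCF-1 cKO 5713 became 2775 (12.6%) without Post-Tx replicate 2 and 3232 without Pre-Tx replicate 3. The interaction called 3013 (13.7%) without Post-Tx replicate 2 of TCF-1 cKO and 3511 without Post-Tx replicate 3 of WT. With length-scaled TPM, the rises and falls in WT were 3011 and 1584. Upper-quartile scaling moved the median over all genes from -0.11 to -0.47 before transplant (1451 higher and 962 lower became 636 and 2070) and from 0.09 to 0.38 after it (679 and 604 became 687 and 111). In WT the median went from -0.41 to -0.70 (2482 and 2223 became 1852 and 3216), in TCF-1 cKO from 0.35 to 0.73 (3037 and 2676 became 4485 and 1644) and for the interaction from 0.37 to 1.05 (3665 and 2469 became 4865 and 720).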

Other observations

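Over 12 libraries and 16979 genes, the genes whose log normalized CPM followed each of the 8 most closely were named with Pearson's r as a description. The libraries share their groups and depths, which such values also follow. Nfatc1 was followed by Acly (0.948) and Ddx24 (0.943), and Nfatc2 by Nde1 (0.962) and Dbi (0.955). Nfatc3 was followed by Fgfr1op2 (0.969) and Atp11b (0.969), and Nfat5 by Ncan (0.958) and Smad9 (0.954). Ppp3ca was followed by Arpc5l (0.974) and Fam69a (0.969), Ppp3cb by Arl14ep (0.923) and Twf1 (0.918), and Ppp3r1 by Asb3 (0.973) and Tfam (0.965). Rcan1 was followed by Gaa (0.917) and Alkbh2 (0.888), the lowest values among the 8.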
